A study of Mus musculus with 4 samples.

Results

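RNA of fibroblast growth factor (FGF) pathway genes was compared in mouse testis interstitium at postnatal day 10, in EGFP-marked cells sorted by laminin staining. FGF signalling itself was not measured. The genes were the ligands Fgf1 to Fgf23, the receptors, the coreceptors Kl and Klb, the adaptors Frs2 and Frs3, the membrane partners Flrt2 and Flrt3, the Sprouty, Spred and Dusp inhibitors with Il17rd, and the ETS factors Etv1, Etv4 and Etv5. They were chosen by gene symbol, which found 46 of the 22802 rows of the table. Each had a row of its own, and Spry3 was not analysed here.

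FGFs are secreted proteins that bind tyrosine kinase receptors together with heparan sulfate, and the receptors signal through the FRS adaptors to the RAS and ERK kinases. ERK signalling raises the transcription of its own inhibitors, among them Sprouty genes and Dusp6, and of the ETS factors Etv4 and Etv5. These genes are widely used as readouts of ERK signalling, but their levels alone do not show which receptor was active. In the testis, Fgf9 is known for its role in male sex determination and Fgf2 as a factor that helps to maintain spermatogonial stem cells.

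The laminin-positive group and the laminin-negative group held 2 samples each, all from C57BL/6J testes at postnatal day 10. Every animal carried mFLE-Cre and CAG-CAT-EGFP, a reporter that makes EGFP after Cre recombination. The labels do not describe what drives mFLE-Cre or how many animals a sample held. The sample labels call both populations positive for EGFP, while the design text calls the laminin-negative one weak, so laminin staining and EGFP level cannot be told apart. Nothing states that samples of a group came from separate animals, so the spread that p-values measure here may be technical.

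Levels are given in FPKM, sequenced fragments scaled to transcript length and library size. FPKM summed to 491475 to 548986 per library, and read totals were not given in the sources used here. Smooth muscle markers summed to 5345 and 5404 FPKM in laminin-positive and 167 and 154 FPKM in laminin-negative libraries, and all 6 were higher in laminin-positive cells. Leydig cell markers, counting Insl3 with Jak3 in a shared row, summed to 169 and 124 FPKM in laminin-positive and 4715 and 4471 FPKM in laminin-negative libraries. All 5 were lower in laminin-positive cells. All 4 pericyte markers were higher in laminin-positive cells, with summed FPKM of 270.0 and 279 in laminin-positive and 48.4 and 47.2 in laminin-negative libraries. Interstitial fibroblast markers summed to 1054 and 1108 FPKM in laminin-positive and 2574 and 2997 FPKM in laminin-negative libraries, with Tcf21 and Nr2f2 higher and Pdgfra, Dcn and Lum lower in laminin-positive cells. The 4 macrophage genes summed to 25.8 and 23.1 FPKM in laminin-positive libraries, against 5.76 and 3.37 FPKM in laminin-negative libraries. The 7 Sertoli cell genes summed to 42.6 and 29.8 FPKM in laminin-positive libraries, against 14.1 and 12.6 FPKM in laminin-negative libraries. All 4 macrophage genes and 3 of 5 tested Sertoli genes were higher in laminin-positive cells. Germ cell markers other than Kit reached at most 6.82 FPKM, with 5 of 6 tested higher in laminin-positive cells and Kit lower. The endothelial genes Pecam1 and Kdr were under 1 FPKM in every library, while Cdh5 was at 9.89 and 9.25 FPKM in laminin-positive and 165 and 173 FPKM in laminin-negative libraries. Of 3 tested endothelial genes, Cdh5 and Tek were lower and Emcn was higher in laminin-positive cells. Emcn was at 1.87 and 2.32 FPKM in laminin-positive and 0.585 and 0.900 FPKM in laminin-negative libraries. Cldn5, not tested, was at 1.14 and 0.520 FPKM in laminin-positive and 0.0749 and 0.209 FPKM in laminin-negative libraries. In whole-population RNA, fewer cells of a type and less RNA per cell cannot be told apart, and the part of these other cells in the differences given here was not tested.

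Of the 46 FGF pathway genes, 29 reached 1 FPKM in at least 2 libraries and were tested with limma on log2(FPKM + 1), with adjustment over all 12348 genes tested. Laminin-positive cells had higher levels of 12 and lower levels of 8, and 9 did not pass at an adjusted p under 0.05. The populations differed so widely that 52.9% of all tested genes were called, 26.6% as higher and 26.3% as lower. With libraries scaled to equal FPKM sums, 64.1% of all calls were higher, in place of 50.3%. Of the 29, 10 passed the filter through the population in which they were higher, so the filter favoured a difference in that direction. The other 19 were at 1 FPKM or more in all 4 libraries, and 7 of them were higher, 3 lower and 9 not called. That is 52.6% called, against 49.8% of the 11155 genes at this level (24.4% higher and 25.3% lower), so the number of calls was near the background. The libraries of the populations did not overlap for 23 of the 29, against 77.2% of all tested genes. The median log2 difference of the 29 genes was 0.05, and that of all tested genes 0.01. Calls with a log2 difference of 1 or more numbered 7 higher and 2 lower among the 29, against 13.2% of all tested genes in either direction. Among the 19 genes there were 5, all higher in laminin-positive cells, against 9.71% at this level.

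**Figure D1:**
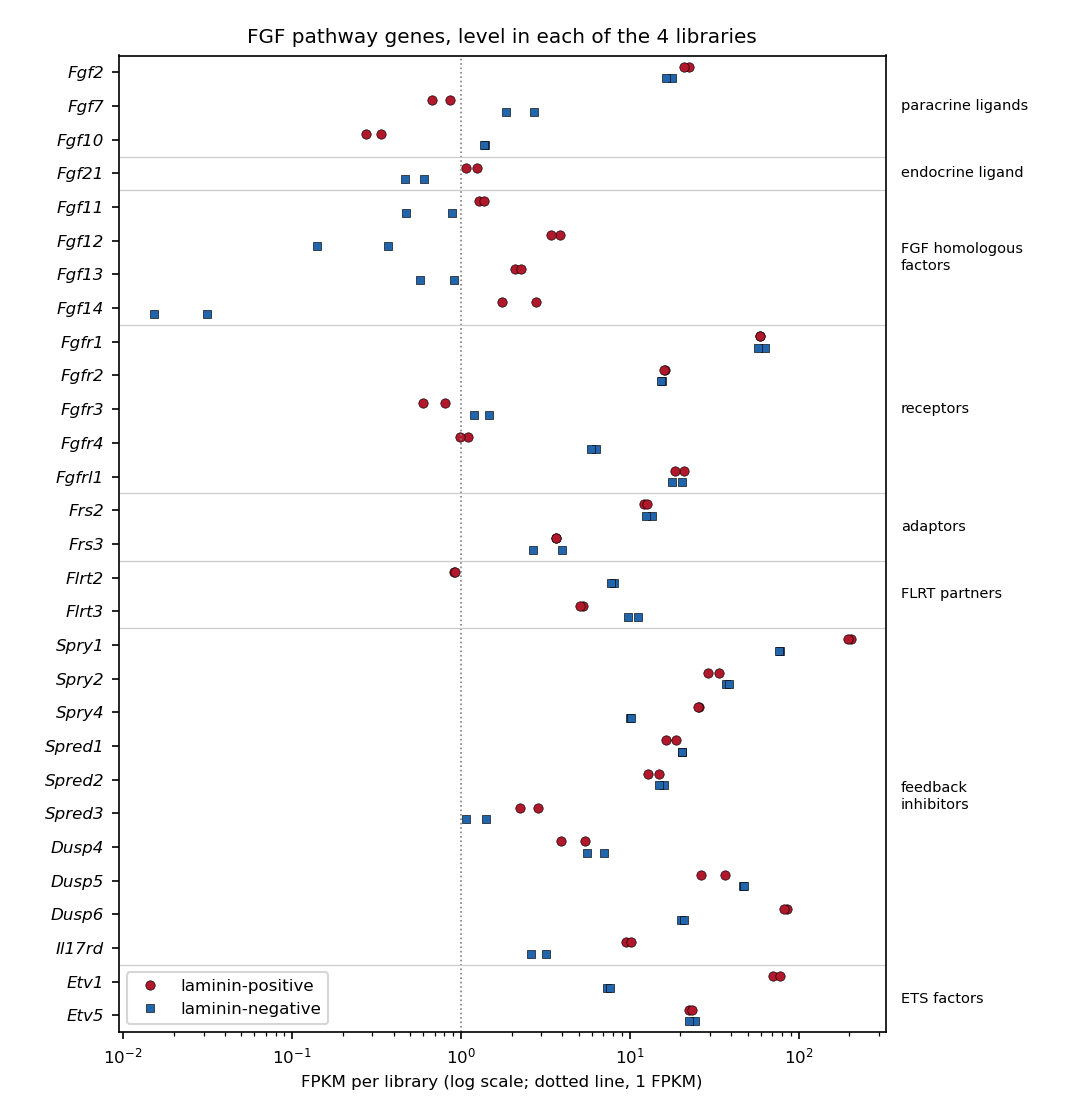
FPKM in each library (log axis) for the 29 tested FGF pathway genes, with red circles for the 2 laminin-positive and blue squares for the 2 laminin-negative libraries. Fgfr1 points of all 4 libraries lie together at 57.7 to 63.4 FPKM, while those of Etv1, Dusp6 and Spry1 stand apart by population.

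Paracrine ligands were few, and Fgf2 stood far above the rest. Fgf2, the basic FGF (chromosome 3, 37348346 to 37410108, GRCm38), was at 22.4 and 21.1 FPKM in laminin-positive cells, against 17.7 and 16.5 FPKM in laminin-negative cells. The groups did not overlap, and the difference was small (log2 difference 0.33, SE 0.08, limma adjusted p = 0.00694). The call was lost without laminin-positive replicate 1 (limma adjusted p = 0.0680) and without variance shared across genes (limma adjusted p = 0.0967), in a range from 0.00135 to 0.0967 over the alternatives. Fgf2 made up 89.7% and 86.5% of the summed paracrine ligand FPKM in laminin-positive libraries and 78.3% and 75.3% in laminin-negative libraries. Fgf2 shares 640 exonic bases with Nudt6 on the other strand. Nudt6 was at 18.0 and 18.8 FPKM in laminin-positive and 14.7 and 15.2 FPKM in laminin-negative cells, and although the library kit keeps strand, no source used here says whether the counting used it, so the source of reads from the shared stretch is uncertain.

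Fgf7 and Fgf10, ligands that mesenchymal cells make for epithelia, were low and went the other way. Fgf7 was at 0.865 and 0.674 FPKM in laminin-positive cells, against 1.86 and 2.70 FPKM in laminin-negative cells (2.96-fold lower, limma adjusted p = 5.62e-04). Fgf10 was at 0.274 and 0.339 FPKM in laminin-positive and 1.39 and 1.37 FPKM in laminin-negative cells (4.51-fold lower, limma adjusted p = 1.90e-04). Both passed the filter through laminin-negative cells, and neither gene's groups overlapped. The Fgf7 call was lost without variance shared across genes (limma adjusted p = 0.117, in a range from 1.29e-04), while that of Fgf10 held in the 11 alternatives that tested it (it was not tested with the filter at 5 FPKM). Fgf18 lay just under the filter with the same order, at 0.0976 and 0.0450 FPKM in laminin-positive and 0.992 and 0.712 FPKM in laminin-negative cells. Fgf1, the acidic FGF, was at 0.883 and 1.10 FPKM in laminin-positive and 0.543 and 0.551 FPKM in laminin-negative cells, and was not tested either.

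The other 10 paracrine ligands were under 0.5 FPKM in every library, and 4 of them, Fgf4, Fgf6, Fgf16 and Fgf20, were listed at 0 throughout. Fgf9, which is made by Sertoli cells, reached at most 0.0400 FPKM. Fgf3 and Fgf8 were listed at 0 in both laminin-negative libraries and at 0.0918 to 0.430 FPKM in laminin-positive libraries. Fgf22 was above 0 in laminin-positive replicate 2 alone, at 0.443 FPKM. Among the endocrine ligands, which act at a distance with Klotho coreceptors, Fgf23 was listed at 0 and Fgf15 reached at most 0.129 FPKM. Fgf21, known as a fasting hormone of the liver, was at 1.25 and 1.08 FPKM in laminin-positive and 0.465 and 0.603 FPKM in laminin-negative cells (log2 difference 0.50, SE 0.13, limma adjusted p = 0.00854). It passed the filter through laminin-positive cells, where it was higher. This call was lost without laminin-positive replicate 1 (limma adjusted p = 0.0541) and without variance shared across genes (limma adjusted p = 0.0865), in a range from 0.00291 to 0.0865. The coreceptors were low, with Kl at 0.124 to 0.451 FPKM and Klb at no more than 0.0748 FPKM in any library.

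All 4 FGF homologous factors were higher in laminin-positive cells. These proteins share the FGF fold but stay inside the cell, where they bind the tails of voltage-gated sodium channels. All 4 passed the filter through laminin-positive cells, which favoured this direction, so the count of calls is no result about these genes. Of all tested genes, 26.6% were called higher. The summed FPKM of the 4 genes was 9.0 and 9.82 in laminin-positive libraries, against 1.85 and 1.56 in laminin-negative libraries. Fgf12 (chromosome 16, 28160098 to 28753068) was at 3.86 and 3.40 FPKM in laminin-positive cells, against 0.371 and 0.142 FPKM in laminin-negative cells. Its log2 difference of 1.89 (SE 0.14, limma adjusted p = 8.16e-07) is smaller than the 14.2-fold ratio of mean FPKM would give, since 1 FPKM is added before the logarithm. That ratio rests on low and unequal laminin-negative values, so its size is uncertain. Fgf14 (chromosome 14, 123977907 to 124677127) was at 1.75 and 2.77 FPKM in laminin-positive and 0.0152 and 0.0316 FPKM in laminin-negative cells (log2 difference 1.65, SE 0.16, limma adjusted p = 8.60e-06). Its laminin-negative level is too close to 0 for a ratio to be read from it. Fgf13 was at 2.1 and 2.27 FPKM in laminin-positive and 0.572 and 0.908 FPKM in laminin-negative cells (2.96-fold higher, limma adjusted p = 2.89e-04).

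Fgf11 differed least among these genes, at 1.29 and 1.38 FPKM in laminin-positive and 0.889 and 0.475 FPKM in laminin-negative cells (log2 difference 0.48, limma adjusted p = 0.0178). Its log2 difference was 0.30 without laminin-negative replicate 2 (limma adjusted p = 0.0987), and the call was also lost without laminin-positive replicate 2 (limma adjusted p = 0.0536). Without variance shared across genes the calls of Fgf11, Fgf13 and Fgf14 were lost (limma adjusted p = 0.203, 0.0808 and 0.0670), while that of Fgf12 held at 0.0396. The ranges over the alternatives were 0.00470 to 0.203 for Fgf11, 5.29e-05 to 0.0808 for Fgf13 and 1.67e-09 to 0.0670 for Fgf14. A list of 6 Schwann cell and neuron markers, added after these values were seen, had 5 genes under 1 FPKM in every library, among them Sox10 and Snap25. The other, Tubb3, a neuronal tubulin, was at 6.76 and 4.57 FPKM in laminin-positive and 14.3 and 9.17 FPKM in laminin-negative cells and was called lower (limma adjusted p = 0.00215), a call that did not hold when each gene's variance stood alone (limma adjusted p = 0.225, in a range from 4.58e-06). The part of such cells in the levels of the FGF homologous factors was not tested.

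The receptor mix was dominated by Fgfr1 in both populations. Fgfr1 (chromosome 8, 25513654 to 25575718) was at 59.1 and 59.0 FPKM in laminin-positive cells, against 63.4 and 57.7 FPKM in laminin-negative cells. The laminin-positive values lay between the laminin-negative values (log2 difference −0.03, SE 0.08, limma adjusted p = 0.740). Among all rows, Fgfr1 ranked 1257 by mean FPKM in laminin-positive cells and 1271 in laminin-negative cells. Fgfr2 was at 16.1 and 16.0 FPKM in laminin-positive and 15.6 and 15.2 FPKM in laminin-negative cells (limma adjusted p = 0.619). The GENCODE M21 record of Fgfr2 (chromosome 7, 130162451 to 133123350) shares 314 exonic bases with Ctbp2 on the same strand. The deposited Fgfr2 row ends just before position 130266809, and whether the shared bases fall within it was not examined. Ctbp2 was at 36.1 and 39.2 FPKM in laminin-positive and 19.4 and 17.9 FPKM in laminin-negative cells. Gene-level FPKM does not separate the b and c splice forms of the receptors, which decide the ligands they bind. Fgfrl1, which lacks the kinase domain and can act as a decoy, was at 21.0 and 18.6 FPKM in laminin-positive and 20.3 and 17.8 FPKM in laminin-negative cells (limma adjusted p = 0.676).

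Fgfr4 had the largest log2 difference among the receptors. Like Fgfr3, it passed the filter through laminin-negative cells, where both were higher, so the filter favoured this direction for both genes. Fgfr4 (chromosome 13, 55152640 to 55168759), which is known as a receptor for endocrine FGFs in the liver, was at 1.11 and 0.992 FPKM in laminin-positive cells, against 6.33 and 5.91 FPKM in laminin-negative cells. It was 5.83-fold lower in laminin-positive cells (log2 difference −1.80, SE 0.11, limma adjusted p = 2.69e-07). The Fgfr4 call held in every alternative. Its share of the summed receptor FPKM was 1.13% and 1.04% in laminin-positive and 5.91% and 6.04% in laminin-negative libraries. Fgfr1 took 60.3% and 62.0% in laminin-positive and 59.2% and 59.0% in laminin-negative libraries. Fgfr3, a receptor best known from cartilage, was at 0.805 and 0.598 FPKM in laminin-positive and 1.47 and 1.20 FPKM in laminin-negative cells (limma adjusted p = 0.0152). The Fgfr3 call was lost without laminin-positive replicate 2 (limma adjusted p = 0.104), without laminin-negative replicate 1 (limma adjusted p = 0.0666) and without variance shared across genes (limma adjusted p = 0.137), in a range from 0.00700 to 0.137.

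**Figure D2:**
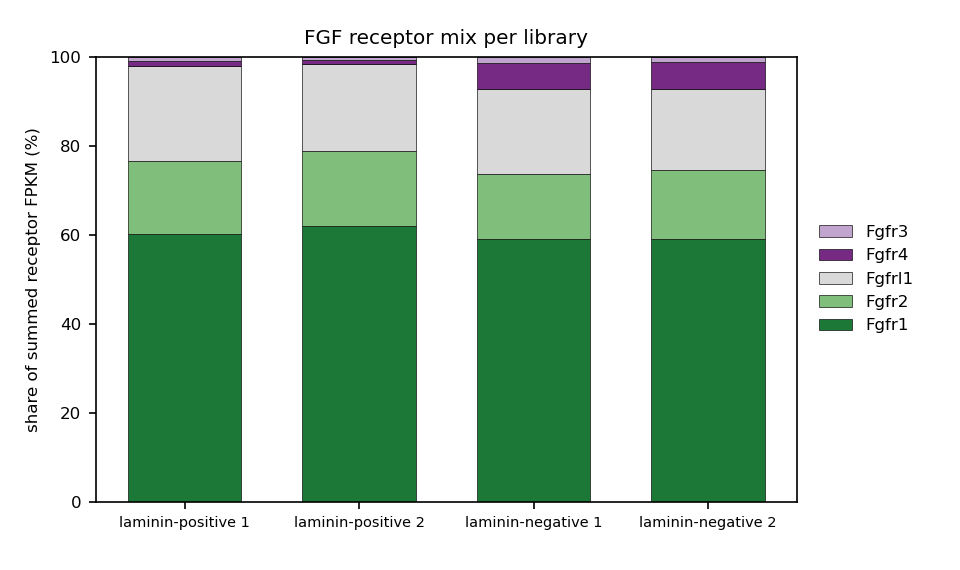
Share of each receptor gene in the summed receptor FPKM (percent) of the 2 laminin-positive libraries on the left and the 2 laminin-negative libraries on the right. Fgfr1 holds 59.0% to 62.0% in all 4, and the Fgfr4 band is 1.04% and 1.13% in laminin-positive against 5.91% and 6.04% in laminin-negative libraries.

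Neither adaptor passed the test. Frs2, the main link between FGF receptors and RAS, was at 12.1 and 12.6 FPKM in laminin-positive and 13.5 and 12.6 FPKM in laminin-negative cells (log2 difference −0.07, SE 0.09, limma adjusted p = 0.508). Frs3 was at 3.68 FPKM in both laminin-positive libraries and at 3.95 and 2.68 FPKM in laminin-negative libraries (limma adjusted p = 0.460). Frs3 reached limma adjusted p = 0.0428 without laminin-negative replicate 1, in a range from 0.0428 to 0.740 over the alternatives. It shares 509 exonic bases with its antisense gene Frs3os, which was under 0.3 FPKM in every library.

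Flrt2 and Flrt3, leucine-rich membrane proteins that bind FGF receptors and also guide cells through Unc5 receptors, were both lower in laminin-positive cells. Flrt2 (chromosome 12, 95692226 to 95785215) was at 0.909 and 0.923 FPKM in laminin-positive cells, against 8.07 and 7.78 FPKM in laminin-negative cells. It was 8.65-fold lower (log2 difference −2.22, SE 0.11, limma adjusted p = 3.93e-08) and had passed the filter through laminin-negative cells. Flrt3 was at 5.29 and 5.10 FPKM in laminin-positive and 9.74 and 11.2 FPKM in laminin-negative cells (2.02-fold lower, log2 difference −0.89, SE 0.10, limma adjusted p = 3.55e-05). The Flrt3 call was lost without variance shared across genes (limma adjusted p = 0.0524, the highest of a range that began at 1.04e-05). Flrt3 lies within Macrod2, and both rows carry the same locus in the table.

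Feedback inhibitors held the highest levels of the pathway and split into separate directions. All 10 were tested and at 1 FPKM or more in every library. Spry1, Spry4, Spred3, Dusp6 and Il17rd were higher in laminin-positive cells, Spry2 and Dusp5 were lower, and Spred1, Spred2 and Dusp4 did not pass. Of all genes at this level in every library, 24.4% were higher and 25.3% lower. The median log2 difference was 0.26. Summed FPKM of the 10 genes was 433 and 409 in laminin-positive and 239 and 238 in laminin-negative libraries, and Spry1 made up 47.1% and 48.0% of it in laminin-positive and 32.3% and 32.2% in laminin-negative libraries.

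Sprouty proteins block RAS and ERK activation below receptor tyrosine kinases. Spry1 (chromosome 3, 37639947 to 37644598) was at 204 and 196 FPKM in laminin-positive cells, against 77.3 and 76.8 FPKM in laminin-negative cells. It was 2.6-fold higher (log2 difference 1.37, SE 0.07, limma adjusted p = 4.83e-08) and ranked 353 of all rows by mean FPKM in laminin-positive cells and 1006 in laminin-negative cells. Spry4 (chromosome 18, 38586247 to 38601415) was at 25.7 and 25.5 FPKM in laminin-positive and 10.0 and 10.1 FPKM in laminin-negative cells (log2 difference 1.26, SE 0.08, limma adjusted p = 3.23e-07). Spry2 had the reverse order, at 34.0 and 29.1 FPKM in laminin-positive and 37.1 and 38.6 FPKM in laminin-negative cells (log2 difference −0.26, SE 0.09, limma adjusted p = 0.0304). The Spry2 call was lost in 8 of 12 alternatives, with limma adjusted p from 0.0116 to 0.316. Leaving out laminin-positive replicate 2 gave a log2 difference of −0.15 (limma adjusted p = 0.316), and leaving out laminin-negative replicate 1 or 2 gave limma adjusted p = 0.0535 or 0.107. Spry1 stood above Spry2 in all 4 libraries.

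Dusp6 and Dusp5 are phosphatases that remove the activating phosphates of ERK, in the cytoplasm and in the nucleus. Dusp6 (chromosome 10, 99263231 to 99267489) was at 85.6 and 81.5 FPKM in laminin-positive cells, against 20.0 and 21.0 FPKM in laminin-negative cells. The 4.08-fold difference (log2 difference 1.98, SE 0.07, limma adjusted p = 5.03e-09) was the largest among the 10 inhibitors on the log2 scale. Dusp5 was lower, at 36.8 and 26.4 FPKM in laminin-positive and 47.0 and 47.3 FPKM in laminin-negative cells (log2 difference −0.58, SE 0.13, limma adjusted p = 0.00269). The laminin-positive libraries differed from each other for Dusp5, and the log2 difference was −0.35 without laminin-positive replicate 2 (limma adjusted p = 0.0135). Without variance shared across genes the Dusp5 call was lost (limma adjusted p = 0.217, in a range from 1.15e-06 to 0.217).

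Dusp4, a nuclear phosphatase of the same family, was at 5.47 and 3.91 FPKM in laminin-positive and 7.08 and 5.61 FPKM in laminin-negative cells, just short of the threshold (limma adjusted p = 0.0549). Dusp4 was called lower without laminin-positive replicate 1 (log2 difference −0.57, limma adjusted p = 0.00624) and without laminin-negative replicate 2 (log2 difference −0.52, limma adjusted p = 0.0365), and limma adjusted p ranged up to 0.424 over the alternatives. Il17rd, a membrane protein that antagonises FGF receptors, was at 9.49 and 10.2 FPKM in laminin-positive and 3.18 and 2.62 FPKM in laminin-negative cells (log2 difference 1.48, SE 0.11, limma adjusted p = 1.17e-06). The calls of Spry1, Spry4, Dusp6 and Il17rd held in every alternative.

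Spred proteins bring neurofibromin to the membrane to restrain RAS. Spred1 was at 16.5 and 18.8 FPKM in laminin-positive and 20.4 and 20.5 FPKM in laminin-negative cells, and its groups did not overlap, but it did not pass (limma adjusted p = 0.0759). Spred2 was at 12.8 and 15.0 FPKM in laminin-positive and 16.0 and 14.9 FPKM in laminin-negative cells (limma adjusted p = 0.249). Spred3, the least abundant, was higher at 2.85 and 2.26 FPKM in laminin-positive against 1.42 and 1.07 FPKM in laminin-negative cells (limma adjusted p = 0.00210), and did not pass when variance was not shared across genes (limma adjusted p = 0.127, in a range from 5.74e-04). Spred3 shares 202 exonic bases with Ggn on the other strand, which was at 3.58 and 4.09 FPKM in laminin-positive and 2.2 and 3.01 FPKM in laminin-negative cells.

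**Figure D3:**
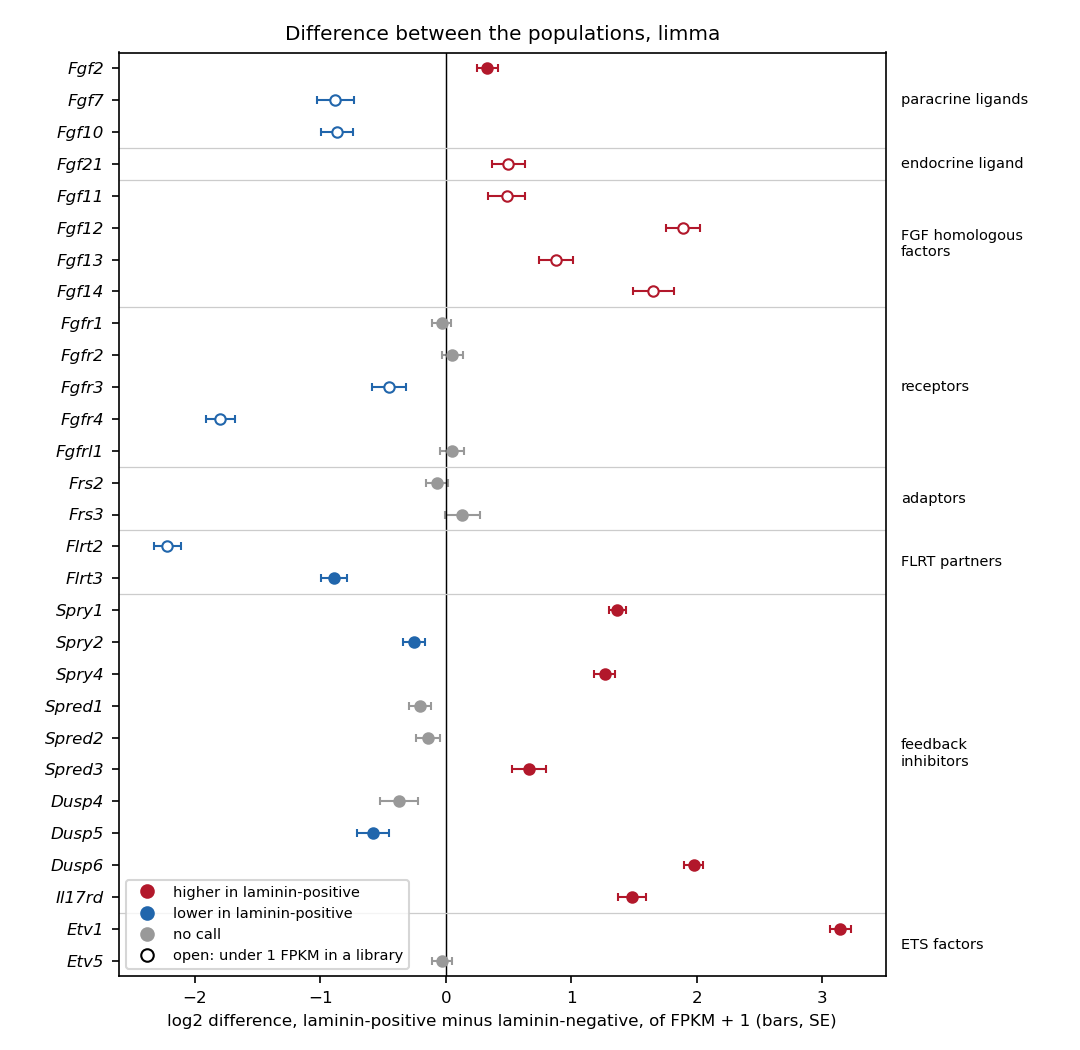
Log2 difference of FPKM + 1, laminin-positive minus laminin-negative, with its SE from limma for the 29 tested genes (red, higher; blue, lower; grey, no call; open points, genes under 1 FPKM in at least 1 library). All 4 FGF homologous factors lie right of 0, Fgfr1, Fgfr2, Fgfrl1 and Frs2 lie within 0.1 of it, and Etv1 is farthest to the right at 3.14 on this scale.

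Etv1 had the largest difference of the tested pathway genes on the log2(FPKM + 1) scale, while with a pseudocount of 0.1 Fgf14 at 4.23 and Fgf12 at 3.46 stood above Etv1 at 3.29. Etv1, an ETS factor of the same subfamily as Etv4 and Etv5 (chromosome 12, 38779380 to 38870484), was at 71.0 and 77.2 FPKM in laminin-positive cells, against 7.30 and 7.67 FPKM in laminin-negative cells. It was 9.90-fold higher (log2 difference 3.14, SE 0.08, limma adjusted p = 3.89e-10). The Etv1 call held in every alternative. Etv5, which spermatogonial stem cells and Sertoli cells also express, did not pass, at 22.4 and 23.4 FPKM in laminin-positive and 24.4 and 22.5 FPKM in laminin-negative cells (log2 difference −0.03, SE 0.08, limma adjusted p = 0.772). Etv4 was low and not tested, at 0.442 and 0.509 FPKM in laminin-positive and 0.147 and 0.0838 FPKM in laminin-negative cells. Etv1 made up 75.7% and 76.3% of the summed FPKM of the 3 ETS factors in laminin-positive libraries, while Etv5 made up 76.6% and 74.4% in laminin-negative libraries.

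Immediate early genes, which ERK and stress signals induce within minutes, were abundant in all 4 libraries. Fos was at 3209 and 3161 FPKM in laminin-positive and 2819 and 2925 FPKM in laminin-negative cells, and Egr1 at 2799 and 2551 FPKM in laminin-positive and 2424 and 2326 FPKM in laminin-negative cells. Neither was called (limma adjusted p = 0.191 for Fos and 0.150 for Egr1), except as higher with equal FPKM sums and with quantile normalization. Of 7 immediate early genes, Fosb and Jun were called higher in laminin-positive cells and none lower, with a median log2 difference of 0.15, where 49.8% of all genes at 1 FPKM or more in every library were called. The Fosb call was lost without laminin-positive replicate 1 and without laminin-negative replicate 2, and the Jun call without these and without laminin-positive replicate 2, among other alternatives (limma adjusted p from 0.00147 to 0.377 for Fosb and from 0.00208 to 0.259 for Jun). Their part in the levels of Sprouty and Dusp genes was not tested.

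**Figure D4:**
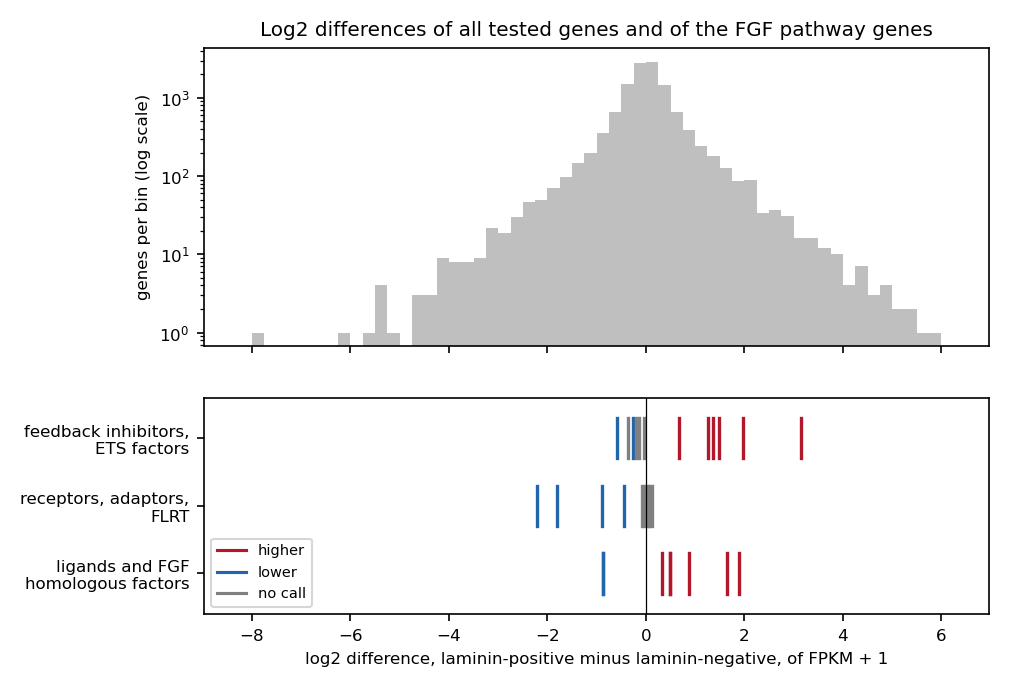
Number of genes per 0.25-wide bin of the log2 difference, laminin-positive minus laminin-negative, over all 12348 tested genes (top, log axis), with 1 tick for each tested FGF pathway gene below (red, higher; blue, lower; grey, no call). Ticks of genes with no call crowd near 0, and Etv1 at 3.14 and Flrt2 at −2.22 are the outermost.

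Upstream sequences are shown for 4 genes with large differences, Etv1, Dusp6 and Fgf12, which were higher, and Flrt2, which was lower in laminin-positive cells. The RefSeq windows used (GRCm38.p6) are the 250 bases before the RefSeq start and hold no GENCODE exon for these genes. They are chr12:38779832-38780081 (plus strand) for Etv1, chr10:99262981-99263230 (plus strand) for Dusp6, chr16:28753244-28753493 (minus strand) for Fgf12 and chr12:95691976-95692225 (plus strand) for Flrt2. Capitals mark CCGGAA, a strict form of the ETS site, searched on both strands.
Etv1: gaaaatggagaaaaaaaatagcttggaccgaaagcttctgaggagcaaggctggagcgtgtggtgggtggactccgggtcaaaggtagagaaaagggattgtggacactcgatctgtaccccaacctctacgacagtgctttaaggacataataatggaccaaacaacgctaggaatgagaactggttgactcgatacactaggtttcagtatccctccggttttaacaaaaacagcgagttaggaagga
Dusp6: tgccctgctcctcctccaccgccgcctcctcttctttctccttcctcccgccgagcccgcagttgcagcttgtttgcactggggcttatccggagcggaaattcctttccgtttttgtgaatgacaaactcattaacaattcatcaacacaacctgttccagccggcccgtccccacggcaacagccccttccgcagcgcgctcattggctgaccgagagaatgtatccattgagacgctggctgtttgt
Fgf12: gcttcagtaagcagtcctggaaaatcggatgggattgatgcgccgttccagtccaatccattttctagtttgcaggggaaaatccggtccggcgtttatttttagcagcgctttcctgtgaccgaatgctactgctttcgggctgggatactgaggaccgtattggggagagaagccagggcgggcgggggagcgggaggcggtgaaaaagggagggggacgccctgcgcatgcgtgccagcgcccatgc
Flrt2: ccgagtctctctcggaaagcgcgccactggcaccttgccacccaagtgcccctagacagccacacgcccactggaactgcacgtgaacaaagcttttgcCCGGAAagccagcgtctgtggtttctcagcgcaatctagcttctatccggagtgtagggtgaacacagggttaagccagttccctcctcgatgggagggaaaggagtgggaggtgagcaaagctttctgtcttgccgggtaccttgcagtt

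CCGGAA was found in the Flrt2 window, starting 151 bases before the start site, and not in those of Etv1, Dusp6 and Fgf12. Other forms of the ETS site were not searched, and the shorter GGAA can be read in the Etv1, Dusp6 and Fgf12 windows. A window was at hand for 36 of the 46 genes, and 5 of these held CCGGAA, namely Frs2, Flrt2, Fgfr4, Fgf5 and Fgfrl1. Of all 32851 windows of this length, 12% held it. The AP-1 site TGANTCA and the cyclic AMP response element TGACGTCA, searched in the same way, were found in 0 of the 36 windows, and in 6.75% and 1.55% of all windows. A match describes letters only, and its absence says nothing of sites elsewhere. Etv1 has 2 RefSeq windows and Fgf12 has 4, and the one nearest to the start in the table was used. For Etv1 the RefSeq start lies 176 bases from that start. The Etv1 window also lies inside the GENCODE gene, which begins at 38779380.

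Members of the pathway also lie next to each other in the genome. Spry1 lies 230 kb from Fgf2 on chromosome 3, with Spata5 as the only protein-coding gene wholly between them, and both were higher in laminin-positive cells by limma, Spry1 at log2 difference 1.37 and Fgf2 at 0.33. Spry4 lies 237 kb from Fgf1 on chromosome 18 with no protein-coding gene wholly between them. Genes that reach past an end of the gap were not counted. Spry4 was called higher, and Fgf1, which was not tested, was at 0.883 and 1.10 FPKM in laminin-positive and 0.543 and 0.551 FPKM in laminin-negative cells. The other neighbours were low: Fgf3, Fgf4 and Fgf15 on chromosome 7 reached at most 0.430 FPKM, and Fgf6 and Fgf23 on chromosome 6 were listed at 0.

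Among 24 genes of the intracellular cascade below the receptors, all were tested, and 9 were higher, 5 lower and 10 not called in laminin-positive cells (median log2 difference 0.14). All 24 were at 1 FPKM or more in every library, where 24.4% of genes were higher and 25.3% lower, with 49.8% called in all. The one with a log2 difference of at least 1 was Rps6ka1, a kinase activated by ERK, at 3.75 and 2.78 FPKM in laminin-positive and 7.66 and 7.29 FPKM in laminin-negative cells (log2 difference −1.0, SE 0.13, limma adjusted p = 6.31e-05). Its call was lost without variance shared across genes (limma adjusted p = 0.0822). The summed FPKM of the cascade genes was 628 and 640.1 in laminin-positive and 623 and 604 in laminin-negative libraries.

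Among 19 genes of heparan sulfate synthesis and editing and of FGF-binding proteins, 16 were tested, and 3 were higher, 8 lower and 5 not called in laminin-positive cells (median log2 difference −0.27), against 26.6% higher and 26.3% lower among all tested genes. Hs6st2, which adds sulfate at the 6 position of glucosamine, was at 8.20 and 7.57 FPKM in laminin-positive and 24.0 and 29.8 FPKM in laminin-negative cells (3.42-fold lower, limma adjusted p = 4.03e-07). Hs3st1, which adds the rarer 3-O sulfate, was at 1.33 and 1.56 FPKM in laminin-positive and 9.50 and 7.37 FPKM in laminin-negative cells (5.84-fold lower, limma adjusted p = 4.87e-07). With equal FPKM sums and without laminin-positive replicate 2, 5 genes of this list were called lower in place of 8.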

How the data were processed

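RNA was measured by sequencing in 2 laminin-positive and 2 laminin-negative samples. The authors deposited FPKM values per gene and library, per the file headers. TopHat2 2.1.1 and Cufflinks 2.2.1 stand in the submitters' processing notes, with no role given. Libraries were made with a directional kit, per the labels' protocols. Genome build, annotation, strand setting, scaling between libraries and read depth were not given in the sources used here. The number of fragments behind a value is therefore unknown, and counting error adds most to genes of a few FPKM or less. Of 21203 loci whose symbol occurs once, 99.6% overlapped the gene of that name in GENCODE M21 (GRCm38), which supplied the printed coordinates. A library's columns were matched to samples by their names.

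Rows at 1 FPKM or more in at least 2 libraries (12348) were compared as log2(FPKM + 1) with limma 3.58.1 in R 4.3.3, using moderated variances with a trend on mean level and two-sided p-values adjusted by Benjamini-Hochberg over all tested genes (threshold 0.05). Residual degrees of freedom were 2, and the prior added 8.21 at the median. An exact permutation test of 2 against 2 cannot go below p = 0.333 and was not used. Mean fold differences are ratios of mean FPKM. The script was tested on simulated data. Alternatives were a pseudocount of 0.1, no filter, a filter at 5 FPKM, equal FPKM sums without Rn45s, quantile normalization, no variance trend, no variance shared across genes, the replicate number as a block, and each library left out. Every tested member is named with its values, with full statistics for called members at a log2 difference of at least 1 and for the most abundant of each role. Genes of the cascade and heparan sulfate lists are named where called with a log2 difference of at least 1, and cell type markers are given by sums and counts, with single genes as examples chosen after their values were seen. Members and lists were chosen with earlier results of these data known. Some genes of the Schwann cell and neuron list are not reported here.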

Additional observations from a re-analysis of the deposited data

How the results depend on the processing

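Without variance shared across genes, 6 FGF pathway genes were called higher and 3 lower in laminin-positive cells in place of 12 and 8, 3 and 3 cascade genes in place of 9 and 5, 1 and 2 heparan sulfate genes in place of 3 and 8, and 1346 and 1211 of all genes in place of 3288 and 3245. With a filter at 5 FPKM, 19 FGF pathway genes were left and 6 were higher, fewer because fewer were tested. Equal FPKM sums gave 5 heparan sulfate genes lower, moved the median log2 difference of all genes to 0.11 and their calls to 4255 higher and 2382 lower, so that 64.1% of calls were higher in place of 50.3%. Leaving out 1 library gave 10 to 13 FGF pathway genes higher and 6 to 9 lower, 7 to 10 and 4 to 5 cascade genes, 2 heparan sulfate genes higher and 5 to 7 lower, and 2587 to 3254 and 2610 to 3064 of all genes. Signs of log2 differences turned round for genes that were not called in those settings: with equal FPKM sums Fgfr1 was at 0.087, Frs2 at 0.039 and Etv5 at 0.085, and with quantile normalization Fgfr1 was at 0.020. With 1 library left out, Fgfr1 ranged from −0.0996 to 0.034, Fgfrl1 from −0.038 to 0.141, Frs3 from −0.082 to 0.347 and Etv5 from −0.086 to 0.024. The cause was not tested. Over single members and alternatives, 298 values kept direction and side of the threshold, 24 lost a call, 6 gained one and 10 changed sign. With the replicate number as a block, 12 FGF pathway genes were higher and 9 lower, with Dusp4 added (limma adjusted p = 0.0111). The numbers share a label only, and deviations of same-numbered libraries correlated at r = 0.008 across genes, which are not independent. Unknown depth limits genes near 1 FPKM most.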
